A study of Mus musculus with 2 samples.

Results

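The miR-7 family of the mouse consists of 3 genes, Mir7-1, Mir7-2 and Mir7b, and all 3 were found by gene name among the 1973 miRNA genes counted in embryonic neural tube. Small RNA was sequenced (microRNA-seq) from the neural tube, from which the brain and the spinal cord develop, of B6NCrl mice at embryonic day 13.5. There was 1 condition, healthy tissue pooled from male and female embryos, in 2 biological replicates that come from separate tissue samples and share 1 donor entry in the labels. The 2 libraries held 7019469 and 5738209 same-strand counts on miRNA genes in replicates 1 and 2. No treatment, genotype or second tissue was compared, so the values below compare the family's genes with each other, with the other miRNA genes and between the libraries.

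A miRNA gene is transcribed as a long precursor from which a hairpin is cut, and the hairpin is cut again into short mature strands from its 5′ arm (5p) and its 3′ arm (3p). A mature strand pairs with target mRNAs mainly through its seed, bases 2 to 8, and lowers their translation and stability. The miR-7 seed is shared between insects and mammals. In mammals miR-7 is known from the pancreatic islets, the pituitary and the hypothalamus, and among its described targets is Pax6, a transcription factor of neural progenitors. In the brain much of its activity is tied to the circular RNA Cdr1as, which carries many miR-7 sites and is itself cut under the guidance of miR-671.

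The 3 genes lie on 3 chromosomes, and 1 of them has a protein-coding host. Mir7-1 (ENSMUSG00000065434; chromosome 13, 58392779 to 58392886, minus strand, GRCm38, the assembly also called mm10) lies inside Hnrnpk, the gene of a widely expressed RNA-binding protein, on the same strand, with Rmi1 9.36 kb before it and 2210016F16Rik 7.55 kb after it as the closest further genes. In GENCODE M21 the hairpin was intronic in all 12 Hnrnpk transcripts that span it, and it was in the last intron of all 8 protein-coding ones. Mir7-2 (ENSMUSG00000065609; chromosome 7, 78888277 to 78888373, plus strand) overlapped no other annotated gene. The closest gene after it was Aen, a nuclease gene on the same strand, 7.48 kb away, and the closest before it was the long non-coding RNA gene Gm44730 on the opposite strand, 29.8 kb away. Mir7b (ENSMUSG00000065491; chromosome 17, 56242988 to 56243098, plus strand) overlapped no annotated gene either. It starts 183 bases past the end of a long non-coding RNA gene of the same strand (AC026385.1), and the next gene, Fem1a, begins 13.7 kb further on. No other counted miRNA gene lay near any of them. The closest were 79.6 kb from Mir7-1, 617 kb from Mir7-2 and 176 kb from Mir7b, so the 3 genes were not in miRNA clusters.

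The mature sequences decide which counts can be told apart between the genes, and they are therefore shown in full, from RefSeq on GRCm38.p6, 5′ to 3′ and with the seed in capitals. All 3 members had an entry for both arms. The 5p strands are as follows, the first being encoded by both Mir7-1 and Mir7-2.
mmu-miR-7a-5p: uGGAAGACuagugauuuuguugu
mmu-miR-7b-5p: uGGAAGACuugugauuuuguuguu
The 3p strands differ between all 3 genes.
mmu-miR-7a-1-3p (Mir7-1): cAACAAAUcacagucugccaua
mmu-miR-7a-2-3p (Mir7-2): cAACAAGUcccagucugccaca
mmu-miR-7b-3p (Mir7b): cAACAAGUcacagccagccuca

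By seed the 5p strands formed 1 group and the 3p strands formed 2. GGAAGAC was the seed of all 3 genes' 5p strands and of no other entry among the 1738 mature entries of the table. Over the 23 bases they have in common, miR-7b-5p differs from miR-7a-5p at 1 base outside the seed, A10U, counted from 1 at the 5′ end with the miR-7a base first. On the other arm, Mir7-2 and Mir7b share the seed AACAAGU and Mir7-1 has AACAAAU. Neither of these seeds was found in a mature strand of another gene. Relative to miR-7a-2-3p, miR-7a-1-3p carries G7A, C10A and C21U, of which G7A is in the seed. Relative to miR-7a-1-3p, miR-7b-3p carries A7G, U14C, U16A, A20U and U21C.

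The hairpins, with the mature strands in capitals, show how much sequence around the shared strand is particular to each gene.
Mir7-1: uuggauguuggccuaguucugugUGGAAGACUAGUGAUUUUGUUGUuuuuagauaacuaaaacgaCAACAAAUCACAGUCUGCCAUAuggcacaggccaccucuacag
Mir7-2: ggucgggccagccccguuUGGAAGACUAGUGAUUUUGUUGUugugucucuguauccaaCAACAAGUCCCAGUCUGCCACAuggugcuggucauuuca
Mir7b: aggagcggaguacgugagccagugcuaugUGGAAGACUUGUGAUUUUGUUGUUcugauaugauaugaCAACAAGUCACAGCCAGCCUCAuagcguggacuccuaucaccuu
The hairpins of Mir7-1 and Mir7-2 were identical at 68.8% of 109 aligned positions, those of Mir7b and Mir7-1 at 66.9% of 118, and those of Mir7b and Mir7-2 at 64.3% of 115. Mir7-1 and Mir7-2 share an uninterrupted stretch of 24 bases, which is the whole of miR-7a-5p and the base after it. The longest stretch that Mir7b shares with either of them is 14 bases.

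A read of miR-7a-5p therefore cannot be placed on Mir7-1 or Mir7-2 by its sequence unless it runs past the annotated ends. Starting at the first base of miR-7a-5p, a read had to be 25 bases long to match only 1 of the 2202 miRNA hairpins of M21, 2 bases more than the annotated strand. Starting 1 base earlier, 11 bases sufficed for Mir7-1 and 9 for Mir7-2. The other 4 strands, miR-7a-1-3p, miR-7a-2-3p, miR-7b-5p and miR-7b-3p, were each found in no other hairpin once 10 or 11 bases were read. Of all windows of 22 bases, 84 of 87 in Mir7-1 and 73 of 76 in Mir7-2 occurred in no other hairpin, and so did all 90 in Mir7b. These searches asked for exact matches in annotated miRNA hairpins, and the rest of the genome was not searched. A mature sequence encoded by more than 1 gene was uncommon in the RefSeq table, at 54 of 1674 distinct sequences, or 3.23%.

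**Figure D1:**
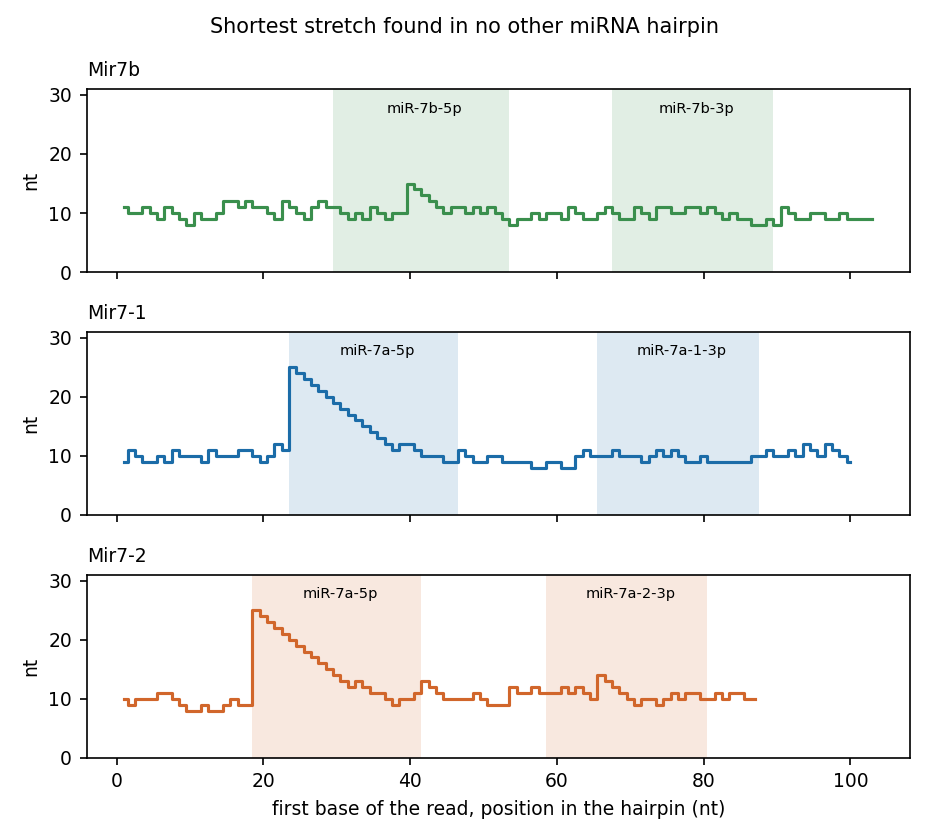
The shortest stretch (nt, y axis) that matches no other miRNA hairpin of GENCODE M21, by the position in the hairpin where the stretch begins (x axis), for Mir7b, Mir7-1 and Mir7-2 from top to bottom. Shaded bands mark the mature strands. At the first base of miR-7a-5p the line jumps to 25 nt in Mir7-1 and in Mir7-2, while it stays at or below 15 nt along Mir7b.

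This bears on the counts because the deposited tables give multimapping reads, those with more than 1 place in the genome, a row of their own. All rows together sum to 1 total whichever of the 3 count columns is taken, from which it was inferred that these reads are in no gene's count. They numbered 3921182 in replicate 1 and 3310889 in replicate 2, or 0.559 and 0.577 per same-strand gene count. How many of them are miR-7a-5p was not measured, nor which strands make up the counts of Mir7-1 and Mir7-2. The levels of these genes below are therefore levels of counted reads. For Mir7b, both mature strands can be placed among the annotated hairpins by sequence.

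By counted reads Mir7b was the highest of the 3 genes, Mir7-1 the second and Mir7-2 the third, in each library. By the inference above, any miR-7a-5p reads among the multimapping ones are missing from Mir7-1 and Mir7-2, and not from Mir7b. Whether the genes would stand in the same order with those reads was not tested. Mir7b had 2099 same-strand counts in replicate 1 and 1602 in replicate 2. As CPM, the count scaled to the library's total of same-strand counts on miRNA genes, that was 299 CPM (Wilson 95% interval 287 to 312) and 279 CPM (266 to 293), with a mean of 289 ± 14.0 CPM (SD, n = 2). Its levels exceeded those of both other genes in both libraries.

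Mir7-1, the copy in Hnrnpk, had 1622 and 1304 counts in replicates 1 and 2. Its level was 231 CPM (220 to 243) and 227 CPM (215 to 240), with a mean of 229 ± 2.70 CPM (SD, n = 2). Of the 3 genes it varied least between the libraries, and its range did not overlap that of Mir7b or of Mir7-2.

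Mir7-2, the intergenic copy, had 1103 and 1024 counts. Its level was 157 CPM (148 to 167) in replicate 1 and 178 CPM (168 to 190) in replicate 2, with a mean of 168 ± 15.1 CPM (SD, n = 2). It was the lowest of the family in both libraries. The intervals cover counting error only, since no molecular identifiers tell repeated copies of a molecule from separate ones. No count was scaled to hairpin length, since a small RNA read covers a whole mature strand, but capture and ligation differ between miRNAs, so a ratio between genes is a ratio of counts and not of molecules. On the opposite strand all 3 genes had 0 counts in both libraries, which allows up to 0.427 CPM in replicate 1 and 0.523 CPM in replicate 2.

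**Figure D2:**
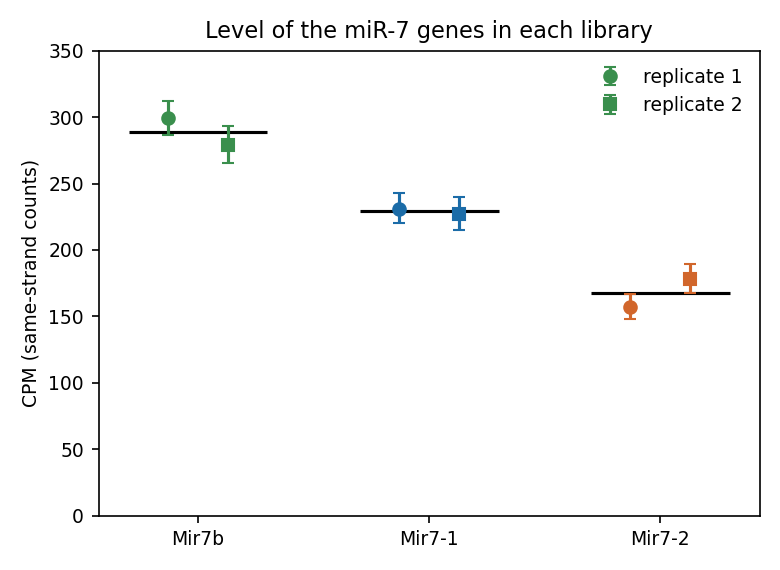
Same-strand CPM (y axis, from 0) of Mir7b, Mir7-1 and Mir7-2 (x axis). Circles are replicate 1, squares replicate 2, error bars Wilson 95% counting intervals and black lines the mean of both libraries. The means of 289, 229 and 168 CPM stand in the same order as the values in each library.

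Together the 3 genes held 4824 counts in replicate 1 and 3930 in replicate 2. The summed level was 687 and 685 CPM, a mean of 686 ± 1.66 CPM (SD, n = 2), or 0.0686% of the same-strand counts. Mir7b contributed 43.5% of these counts in replicate 1 (Wilson 95% interval 42.1% to 44.9%) and 40.8% (39.2% to 42.3%) in replicate 2. Mir7-1 contributed 33.6% (32.3% to 35.0%) and 33.2% (31.7% to 34.7%). Mir7-2 contributed 22.9% (21.7% to 24.1%) and 26.1% (24.7% to 27.5%). The sum thus differed less between the libraries than either Mir7b, lower in replicate 2, or Mir7-2, higher in it. With the multimapping reads added to the total, a choice of denominator that lowers every gene, the means were 184 CPM for Mir7b, 146 CPM for Mir7-1 and 107 CPM for Mir7-2.

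The ratios between the genes' counted reads pointed the same way in both libraries and exceeded their spread. Mir7b over Mir7-1 had a log2 ratio of 0.37 in replicate 1 (exact 95% counting interval 0.28 to 0.47) and 0.30 in replicate 2 (0.19 to 0.40), a mean of 0.33 ± 0.053 (SD, n = 2) or 1.26-fold. Mir7-1 over Mir7-2, the pair that encodes the same 5p strand, had a log2 ratio of 0.56 (0.45 to 0.67) and 0.35 (0.23 to 0.47), a mean of 0.45 ± 0.15 or 1.37-fold. Mir7b over Mir7-2, the widest of the 3 gaps, stood at 0.93 (0.82 to 1.03) and 0.65 (0.53 to 0.76), a mean of 0.79 ± 0.20 or 1.73-fold. None of the 6 intervals included 0. With 2 libraries an exact two-sided sign-flip permutation test gives p = 0.5 for each ratio, the smallest it can give, so the ratios were set against their SD only.

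Among the miRNA genes with enough counts to be ranked, the family stood in the upper middle of the order. Of the 371 genes that reached 10 counts in both libraries, Mir7b ranked 128 by mean CPM, Mir7-1 144 and Mir7-2 160, and all 3 were above the median of 95.1 CPM. The summed family would have ranked 94. The genes next to each member in the order were not separated from it by the replicates. Mir7b stood between Mir376c at 299 ± 30.5 CPM and Mir669o at 287 ± 6.73 CPM, with Mir138-2 and Mir483 beyond them. Mir7-1 stood between Mir3071 at 233 ± 36.2 CPM and Mirlet7c-1 at 225 ± 18.9 CPM, with Mir760 and Mir338 beyond them. Mir7-2 stood between Mir384 at 171 ± 8.84 CPM and Mir542 at 163 ± 16.5 CPM, with Mir669l and Mir195a beyond them. The ranges of all 12 of these neighbours overlapped the range of the member beside them.

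The genes most like each member over the 2 libraries, by Euclidean distance in log2 CPM, were for Mir7b Mir669o (distance 0.038), Mir25 (0.14) and Mir330 (0.18). For Mir7-1 they were Mir760 (0.068), Mirlet7c-1 (0.11) and Mir485 (0.12). For Mir7-2 they were Mir542 (0.065), Mir195a (0.11) and Mir383 (0.14). No member was among the 3 genes most like another member. With 2 libraries of 1 condition this distance reflects mainly the level.

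Of the genes tied to miR-7 by the Cdr1as network or by endocrine expression, the list of 5 named for comparison, those closest in level were Mir671 and Mir204. Mir671, whose product directs the cutting of Cdr1as, had 280 CPM in replicate 1 and 243 CPM in replicate 2, a mean of 261 ± 26.3 CPM at rank 134, between Mir7b and Mir7-1. Its range did not overlap the range of Mir7-1. It was below Mir7b in each library, but its range slightly overlapped that of Mir7b, which ran from 279 to 299 CPM. Mir204, a miRNA of islets and of the choroid plexus, had 150 CPM in replicate 1 and 242 CPM in replicate 2, a range that spans both Mir7-1 and Mir7-2. Mir375, the main islet miRNA and also one of pituitary cells, had 137 and 131 CPM, below Mir7-2 in each library. Mir184 was close to absent at 6 and 5 counts. Mir335, from an intron of the imprinted gene Mest, was the only one of the 5 above the whole family, at rank 6. Between the libraries, Mir204 was the 1 gene of the 4 with at least 100 counts summed that differed by more than 0.5 log2 units, at 0.69 (exact 95% counting interval 0.57 to 0.81) for replicate 2 over replicate 1. The share of all tested genes past that size was 8.5% in either direction and 3.92% upward, and the list's median difference was 0.091. None of the 5 neuronal genes with that many counts, described next, differed so far, and their median difference was 0.041.

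Compared with miRNAs of early neuronal differentiation, a list of 10 of which 9 were in the tables and Mir9-1 was not analysed here, the family had a middle place. Of those 9, 4 had a higher mean than Mir7b. They were Mir137 at 5096 ± 101 CPM, Mir153 at 508 ± 0.78 CPM, Mir9-3 at 394 ± 29.7 CPM and Mir128-1 at 380 ± 28.4 CPM. Mir128-2 at 259 ± 5.95 CPM lay between Mir7b and Mir7-1. The other 4 (Mir124a-1, Mir124a-2, Mir124a-3 and Mir9-2) were below Mir7-2, at 31 counts or fewer in either library. These 4 genes also have further copies with the same mature strand. The same limit holds for Mir9-3, whose hairpin shares 26 bases in a row with that of Mir9-2. It also holds for Mir128-1 and Mir128-2, which share 23. How many reads of any of these genes are among the multimapping ones was not measured. The summed miR-7 level of 686 CPM was above each of the 9 except Mir137. That sets a sum over the family's genes against single genes, since copies of the other miRNAs were not summed.

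**Figure D3:**
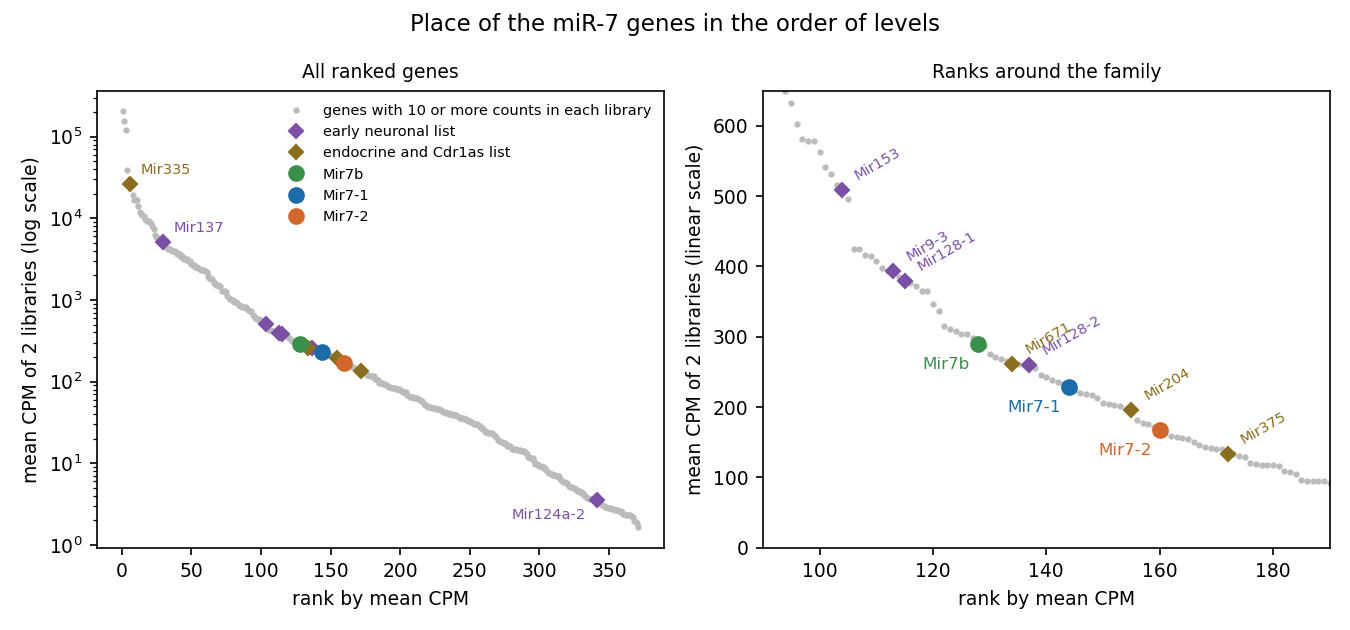
Mean CPM of both libraries against rank for the 371 genes that reached 10 counts in both libraries (left, log scale) and for the ranks around the family (right, linear scale). Circles are the miR-7 genes, at ranks 128, 144 and 160, and diamonds are the genes of the neuronal and the endocrine and Cdr1as lists. Mir671 and Mir128-2 lie between Mir7b and Mir7-1.

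As a check of the tissue, 9 of the 12 neural marker genes in the tables had at least 10 counts in each library. All 12 summed to 9993 CPM in replicate 1 and 9903 CPM in replicate 2, of which Mir137 alone had 5025 and 5168 CPM. Mir124a, the miRNA that best marks neurons, was near 0 in the gene counts of all 3 copies, and so was Mir9-2. These copies share their mature strand with others, and how many of their reads are among the multimapping ones was not measured. The low counts therefore do not show that the miRNAs were absent. Markers of other cells were also present. The sums in replicates 1 and 2 were 17134 and 16019 CPM for the endothelial gene Mir126a and 8451 and 10425 CPM for 4 mesenchymal genes. They were 540 and 788 CPM for 4 epithelial genes and 118 and 373 CPM for 4 muscle genes. Nearly all of the muscle sum was Mir206, at 117 and 373 CPM. Mir1a-1 had 3 and 0 counts, Mir133a-1 and Mir133a-2 were at 0, and Mir1a-2 was not analysed here. How many reads of these numbered copies are among the multimapping ones was not measured. The sums were 156 and 124 CPM for the leukocyte genes, where Mir142b had 0 same-strand counts but 1233 and 984 on the opposite strand and Mir142 was not analysed here, 118 and 30.7 CPM for the liver gene Mir122, 62.8 and 35.6 CPM for 2 erythroid genes and 137 and 132 CPM for 2 endocrine genes. The part that any of these cell types has in the miR-7 levels was not tested. In bulk tissue, fewer cells of a type and less RNA per cell cannot be told apart.

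Between the libraries, no miR-7 gene differed by more than 0.5 log2 units. Of the 306 genes with at least 100 counts summed over both libraries, 26, or 8.5%, differed by more than that, 3.92% upward and 4.58% downward, so 0 of 3 members is near that background. Replicate 2 over replicate 1, Mir7-2 had a log2 ratio of 0.18 (0.059 to 0.31, the exact counting interval). Mir7b was at -0.10 (-0.19 to -0.0046) and Mir7-1 at -0.024 (-0.13 to 0.082). The interval of Mir7-1 included 0 and those of Mir7-2 and Mir7b did not, as was the case for 185 of the 306 genes, or 60.5%. The median absolute difference over the 306 genes was 0.19, which was about that of Mir7-2 and above those of Mir7b and Mir7-1. The median difference was -0.024 over the 3 members and 0.039 over the 306 genes. The summed family was at -0.0049 (-0.066 to 0.056). With 1 library on each side these differences have no replicate check.

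**Figure D4:**
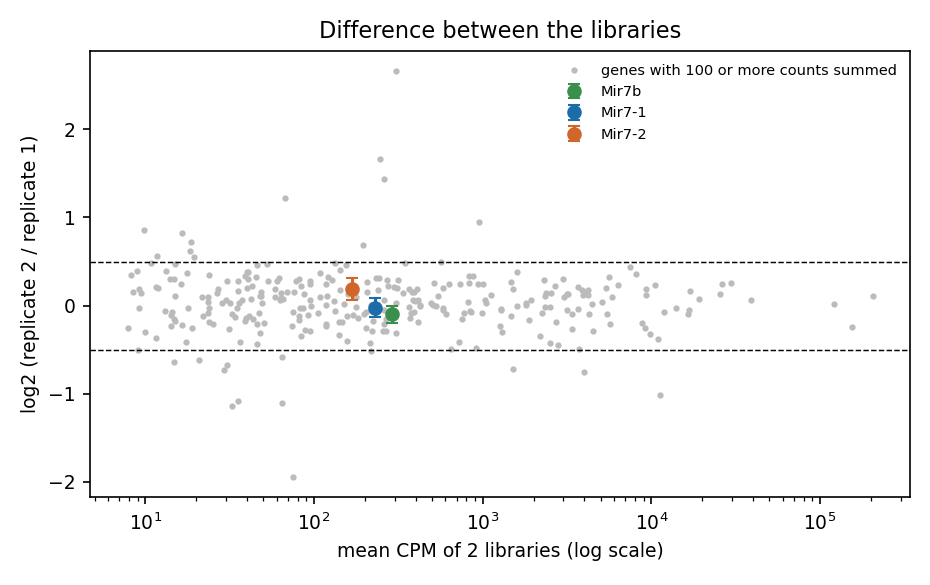
The log2 ratio of replicate 2 to replicate 1 (y axis) against mean CPM (x axis, log scale) for the 306 genes with at least 100 counts summed. Coloured points are the miR-7 genes with exact 95% counting intervals, and dashed lines mark 0.5 and -0.5. All 3 members lie between the dashed lines, Mir7-2 above 0 and Mir7b and Mir7-1 below.

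The split of counts between Mir7-1 and Mir7-2 was compared with that of other miRNAs that have numbered gene copies. Of 45 sets of copies, 24 were compared, in which the 2 highest copies each had at least 10 counts summed. In 19 of the 21 sets left out no copy reached that count, and in 2 only the highest copy did. The ratio of the higher copy to the second ran from 1.06-fold for Mirlet7c to 433-fold for Mir9, both named after their values were seen, with a median of 3.71-fold. The Mir9 ratio is that of Mir9-3 to Mir9-2, without Mir9-1, which was not analysed here. At 1.37-fold, Mir7-1 over Mir7-2 held position 5 of 24 from the smallest ratio, between Mirlet7a at 1.25-fold and Mir128 at 1.46-fold. In 10 sets the ratio was under 2-fold. The place of the miR-7 pair depended on the library, position 2 in replicate 2 alone and position 7 in replicate 1 alone. The longest stretch shared by the hairpins was 22 to 32 bases in these sets, with a median of 24 bases, the length found for miR-7. The part that reads outside the gene counts have in these ratios was not tested.

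**Figure D5:**
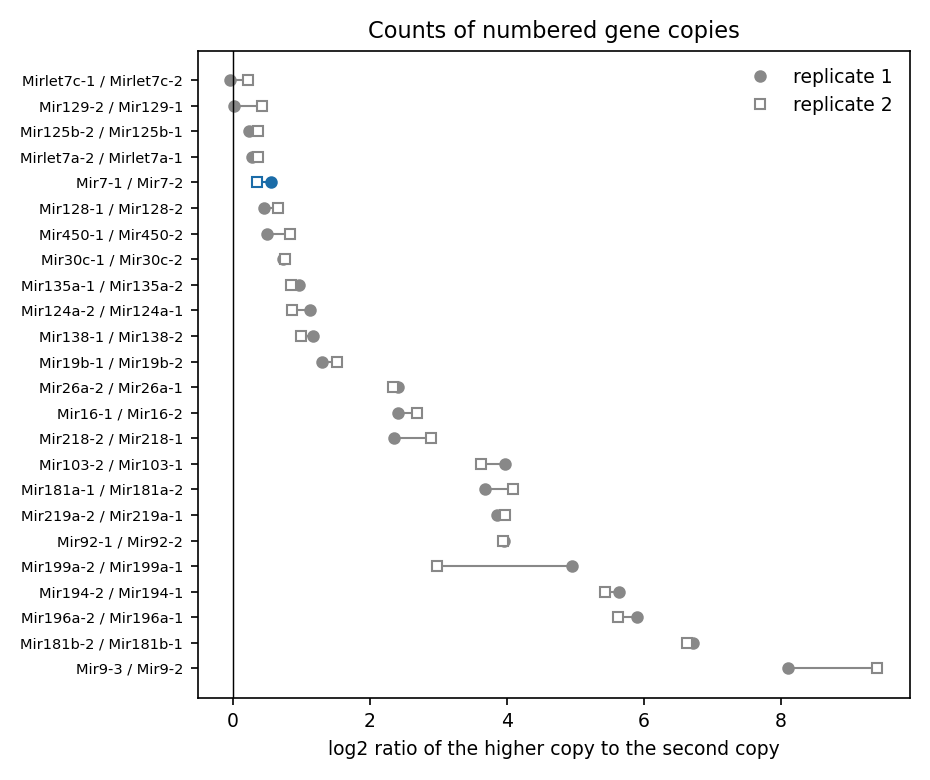
The log2 ratio of the higher to the second gene copy (x axis) in each library for 24 sets of numbered miRNA gene copies (y axis), ordered by the mean ratio. Filled circles are replicate 1 and open squares replicate 2. Mir7-1 over Mir7-2, in blue, is at position 5 from the top, at a mean log2 ratio of 0.45.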

How the data were processed

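The authors deposited unnormalized counts for each miRNA gene, on mm10 with annotation M4, per the file headers of the README. The aligner was not given in the sources used here, and neither was the counting tool. Of the 3 count columns, the second was taken as same-strand from the values, as was the absence of multimapping reads from the gene counts, and counts were scaled to its total over gene rows (CPM). Names and coordinates came from GENCODE M21 by identifier without version (1894 of 1973 matched), and sequences from RefSeq on GRCm38.p6. The members and lists were chosen with earlier results of these data known. Named genes were the members, 4 neighbours in rank and 3 genes of smallest distance for each, 2 gene lists, genes named Mir7 with a letter, and gene copies beside the miR-7 pair. Log2 ratios used a pseudocount of 0.5. The code for the replicate differences was checked on simulated counts, which give no value here. Tools were Python 3.11.15, scipy 1.17.1, Biopython 1.88 and ViennaRNA 2.7.2. Alternatives were edgeR 4.0.16 (TMM) and DESeq2 1.42.0 size factors in R 4.3.3, other pseudocounts, count minimums and totals, the unstranded column, and each replicate left out.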

Additional observations from a re-analysis of the deposited data

Results flagged for a closer look

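Multimapping reads, which by inference from the values lie outside the gene counts, were not used in the comparisons above. They numbered 3921182 in replicate 1, or 28.5% of all reads, and 3310889 in replicate 2, or 31%. The miR-7 counts equal 0.123% and 0.119% of these numbers. How many of them are miR-7a-5p, the strand common to Mir7-1 and Mir7-2, was not measured.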

How the results depend on the processing

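Of 77 alternative values 14 moved. A reversal was looked for only in the 15 alternatives of the log2 ratios between the genes, and none reversed. With 2 libraries, a level, share or ratio from either alone lies within 1 SD of their mean by construction. The order of Mir7b, Mir7-1 and Mir7-2 was the same in either library alone, and the other settings could hardly change it, since they scale the genes alike or add at most 1 count. The position of the Mir7-1 to Mir7-2 ratio among gene copies was 2 to 7 with a library left out, and 6 of 26 with the count minimum on the higher copy only, a setting chosen after seeing the data. With the unstranded column the level of Mir7-1 was 226 CPM and the sum of the family 676 CPM. Without Mir10a in the total, the levels were 363 CPM for Mir7b, 288 CPM for Mir7-1, 211 CPM for Mir7-2 and 863 CPM for the sum, which follows from the smaller total. With multimapping reads in the total they were 184, 146 and 107 CPM for Mir7b, Mir7-1 and Mir7-2. Mir7-2 ranked 158 in either library alone, against 160 by the mean. With a minimum of 10 counts summed, 101 of 455 genes (22.2%) differed between the libraries by over 0.5 log2 units, and with a minimum of 1 count 315 of 726 (43.4%) did, against 26 of 306 (8.5%). With TMM or DESeq2 size factors 29 of 306 did. The replicate differences of the members kept their sign, at 0.15 to 0.18 for Mir7-2, -0.13 to -0.099 for Mir7b and -0.057 to -0.024 for Mir7-1. No paired analysis was possible because there is only 1 group of samples.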

Other observations

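By predicted folding, Mir7b had the least stable hairpin of the family. Its minimum free energy was -35 kcal/mol over 111 bases, or -0.315 kcal/mol per base, and 84.0% of the 1005 hairpins in the RefSeq table had a lower value per base. Mir7-1 was at -46.8 kcal/mol over 108 bases, or -0.433 per base, and Mir7-2 at -40.5 kcal/mol over 97 bases, or -0.418 per base, with 37.7% and 45.6% of hairpins lower. Whether predicted stability has a part in the counted levels was not tested.

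A gene named Mir7j is not a miR-7 gene by sequence. Its mature entry in RefSeq (chromosome 3, 140028281 to 140028304, plus strand, GRCm38.p6) is mmu-let-7j, shown with its seed in capitals.
mmu-let-7j: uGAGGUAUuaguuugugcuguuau
The seed GAGGUAU differs from the miR-7 seed GGAAGAC. Mir7j had 88.6 CPM in replicate 1, from 622 counts, and 41.1 CPM in replicate 2, from 236. Its log2 ratio of replicate 2 to replicate 1 was -1.11 (-1.33 to -0.89 by exact counting interval). A log2 ratio under -0.5 was found in 14 of the 306 genes with at least 100 counts summed, or 4.58%. All 3 miR-7 genes differed by less than 0.5 log2 units. With 1 library on each side these differences have no replicate check. Mir7k, with the mature entry mmu-let-7k, had 1 count in each library.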
